A study of Mus musculus with 15 samples.

Results

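The genes of MHC class II antigen presentation were followed through livers that differed in Jnk1, Jnk2 and hepatocyte NEMO. The set was named by gene symbol and held 7 members: H2-Aa, H2-Ab1, H2-Eb1, Cd74, H2-DMa, H2-DMb1 and Ciita. A member was measured where a probe set carried its symbol alone, and the brightest such probe set stood for it. This gave values for 6 of the 7 members among 19938 genes in all. The probe set for H2-DMb1 also carried the symbol of its neighbour H2-DMb2, so H2-DMb1 has no value of its own. All 6 measured members lay above the dim level, the 40th percentile of all values (3.69), in 15 of 15 arrays.

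MHC class II molecules are surface receptors that show peptides from engulfed proteins to CD4+ T cells. They are paired alpha and beta chains that assemble around the invariant chain Cd74, pass through endosomes where proteases trim that chain, and receive their peptide with the help of H2-DM. Dendritic cells, B cells and macrophages make most class II, and in the liver Kupffer cells and endothelial cells can carry it, whereas resting hepatocytes carry little. Transcription of the other members depends largely on the co-activator Ciita, which interferon gamma can induce. Ciita is held at their promoters by proteins bound to short elements called the X and Y boxes.

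Total RNA from whole liver was measured on Affymetrix whole-transcript arrays, 1 per mouse, with 3 mice in each of 5 groups. All mice were on a C57BL/6 background, 8 weeks old, fed standard chow and labelled male. The values are log2 expression levels, and their precision is limited by the number of arrays. Nothing in the labels ties mice to litters or cages. The p-values set differences against the spread between these animals, pooled over the groups fitted and moderated by that of other genes. They cover no other source of variation.

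The WT group carried floxed, undeleted NEMO alleles (NEMO floxed/floxed). The Jnk1 KO group (global Jnk1-/-) and the Jnk2 KO group (global Jnk2-/-) lacked a kinase of the Jun N-terminal stress pathway in every cell, immune cells included. The NEMO/Jnk1 DKO and NEMO/Jnk2 DKO groups (NEMOΔhepa on each of these backgrounds) had in addition lost NEMO, the scaffold protein through which inflammatory signals switch on the IkB kinases and NF-kB. That deletion was driven by Alb-cre, a Cre recombinase under the albumin promoter, which is active in hepatocytes. NEMO in other liver cells was not measured apart. No group here lacked NEMO alone, and its loss can be read only on a Jnk-null background.

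The promoter stretches of 2 members are shown because they hold letters of the elements described for Ciita-dependent promoters, and because these genes varied together. Each runs 5′ to 3′ and covers the bases from 150 to 1 before the start of the gene in RefSeq (build GRCm38.p6). Capitals mark the extended Y box CTGATTGG and, in H2-Eb1, also the X box stretch AACNGATG. The H2-Aa stretch is chr17:34287824-34287973 on the minus strand and the H2-Eb1 stretch is chr17:34305717-34305866 on the plus strand.
H2-Aa: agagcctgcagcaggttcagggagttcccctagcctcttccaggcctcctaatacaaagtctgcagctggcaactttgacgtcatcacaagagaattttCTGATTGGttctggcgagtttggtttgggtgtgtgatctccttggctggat
H2-Eb1: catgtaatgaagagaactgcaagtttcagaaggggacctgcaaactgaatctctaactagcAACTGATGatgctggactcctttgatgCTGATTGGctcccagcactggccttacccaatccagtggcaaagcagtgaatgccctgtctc

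RefSeq's promoter table held 4 of the 7 members (H2-Aa, H2-Eb1, H2-DMa and H2-DMb1). The 250 bases before each start were searched on both strands for CTGATTGG, for its inner core ATTGG, which it contains, and for AACNGATG. The extended Y box lay 51 to 44 bases before the start in H2-Aa and 62 to 55 bases before it in H2-Eb1. The X box stretch lay 89 to 82 bases before the start in H2-Eb1. In H2-DMb1 it lay at 92 to 85, with the ATTGG core at 61 to 57. The core was found 198 to 194 bases before the start in 1 of 2 windows of H2-DMa. Of 32851 promoter windows of the same length, 3.83% held the extended Y box, 33.8% its core, 1.98% the X box stretch, and 0.0791% both the extended Y box and the X box stretch. The letters were chosen with these windows in view, and a match describes the sequence only.

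Before the members are compared, 2 arrays have to be named, because their expression did not follow their NEMO label. They are Jnk1 KO replicate 1 and Jnk2 KO replicate 3. Ikbkg, which encodes NEMO, read 6.24 to 6.75 in them, against 7.03 to 7.41 in the 7 remaining NEMO-intact arrays. The 6 double knockouts read 6.18 to 6.85. Ly6d, a surface protein, read 9.70 to 10.1, 4.67 to 5.35 and 7.88 to 10.5 in the same order, and Mmp12, the macrophage elastase, read 8.20 to 8.66, 3.69 to 4.88 and 7.54 to 8.96. These are called the 2 doubted arrays here, and comparisons are given as labelled and without them. They were picked after the values were seen and for likeness to the double knockouts. Leaving them out therefore also widens NEMO differences, and lowers the estimate of the spread, in genes that move with Ly6d and Mmp12. The comparisons of double knockouts with WT use neither array for their means, but share the estimate of the spread with them. Apart from this, 3 arrays labelled male (Jnk1 KO replicate 1 and NEMO/Jnk1 DKO replicates 1 and 2) read 8.68 to 9.17 for Xist against 2.40 to 2.82 in the other 12, and 2.75 to 2.98 for the mean of 3 Y-linked genes against 6.79 to 7.26. The medians over all probe sets lay between 4.26 and 4.38. Mapk9, which encodes JNK2, read 2.39 to 3.28 in the Jnk2-null arrays and 7.41 to 7.67 in the others. Mapk8, which encodes JNK1, separated less: NEMO/Jnk1 DKO replicate 3 read 6.53, above the other Jnk1-null arrays (5.87 to 6.23) and near the lowest Jnk1-intact array (6.58).

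H2-Aa encodes the alpha chain of the I-A class II molecule. It read 6.73, 7.41 and 7.29 in the WT mice, 8.74, 7.30 and 7.08 in the Jnk1 KO mice, and 7.44, 7.71 and 9.79 in the Jnk2 KO mice. The NEMO/Jnk1 DKO mice stood at 9.31, 9.02 and 8.28, and the NEMO/Jnk2 DKO mice at 9.93, 9.87 and 9.03. Every double-knockout array was above every WT array, and the single knockouts were low in 4 arrays and high in the 2 doubted ones. The group means were 7.15 ± 0.36 (SD, n = 3) for WT, 7.70 ± 0.90 for Jnk1 KO and 8.32 ± 1.29 for Jnk2 KO. The means for NEMO/Jnk1 DKO (8.87 ± 0.53) and NEMO/Jnk2 DKO (9.61 ± 0.50) were higher than these. Without the 2 doubted arrays the single-knockout means were 7.19 ± 0.15 (SD, n = 2) and 7.58 ± 0.19.

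H2-Ab1 encodes the beta chain that pairs with it. H2-Ab1 read 7.07, 7.86 and 7.68 in the WT mice, 9.38, 7.68 and 7.56 in the Jnk1 KO mice, and 7.54, 7.96 and 10.28 in the Jnk2 KO mice. Levels of 9.66, 9.37 and 8.83 were seen in the NEMO/Jnk1 DKO mice and 10.38, 10.21 and 9.50 in the NEMO/Jnk2 DKO mice. The layout was that of H2-Aa, with the lowest double-knockout array above the highest of the 7 NEMO-intact arrays other than the doubted ones. H2-Eb1, the beta chain of the I-E molecule, read 6.63, 7.34 and 7.21 in the WT mice, 8.57, 6.68 and 6.92 in the Jnk1 KO mice, and 6.85, 7.35 and 9.55 in the Jnk2 KO mice. The NEMO/Jnk1 DKO mice stood at 9.07, 8.80 and 8.18, and the NEMO/Jnk2 DKO mice at 9.85, 9.55 and 8.91. Here too the double knockouts cleared those 7 arrays and overlapped with the 2 doubted ones. H2-Ea, the alpha chain gene of I-E, which C57BL/6 mice carry in a form that is not expressed, was under the dim level in 15 of 15 arrays (2.76 to 3.20).

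Cd74, the invariant chain that shields the peptide groove until the endosome is reached, read 6.24, 7.10 and 7.11 in the WT mice, 8.48, 7.18 and 6.55 in the Jnk1 KO mice, and 6.97, 7.49 and 9.44 in the Jnk2 KO mice. Levels of 8.71, 8.64 and 8.29 were seen in the NEMO/Jnk1 DKO mice and 9.56, 9.37 and 8.63 in the NEMO/Jnk2 DKO mice. WT replicate 1 was the lowest array for Cd74, H2-Aa, H2-Ab1 and H2-Eb1 alike, and NEMO/Jnk2 DKO replicate 1 the highest.

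H2-DMa encodes the alpha chain of the peptide exchanger H2-DM. H2-DMa read 4.60, 4.55 and 4.37 in the WT mice, 5.47, 4.14 and 4.63 in the Jnk1 KO mice, and 4.42, 4.69 and 5.57 in the Jnk2 KO mice. The NEMO/Jnk1 DKO mice stood at 5.24, 5.26 and 5.08, and the NEMO/Jnk2 DKO mice at 6.26, 5.68 and 5.62. Its step between NEMO-intact and double-knockout arrays was smaller on the log2 scale than that of the chain genes. The double knockouts again lay above the NEMO-intact arrays other than the doubted ones. Unlike in the chain genes, the NEMO/Jnk2 DKO arrays also lay above every Jnk2 KO and every NEMO/Jnk1 DKO array. Ciita, the co-activator, read 4.08, 4.13 and 4.04 in the WT mice, 4.26, 3.98 and 4.23 in the Jnk1 KO mice, and 3.84, 4.02 and 4.77 in the Jnk2 KO mice. Levels of 4.34, 4.26 and 4.35 were seen in the NEMO/Jnk1 DKO mice and 4.82, 4.60 and 4.26 in the NEMO/Jnk2 DKO mice. Ciita showed the narrowest range, with its lowest double-knockout array (4.26) beside its highest of the 7 other NEMO-intact arrays (4.23).

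**Figure D1:**
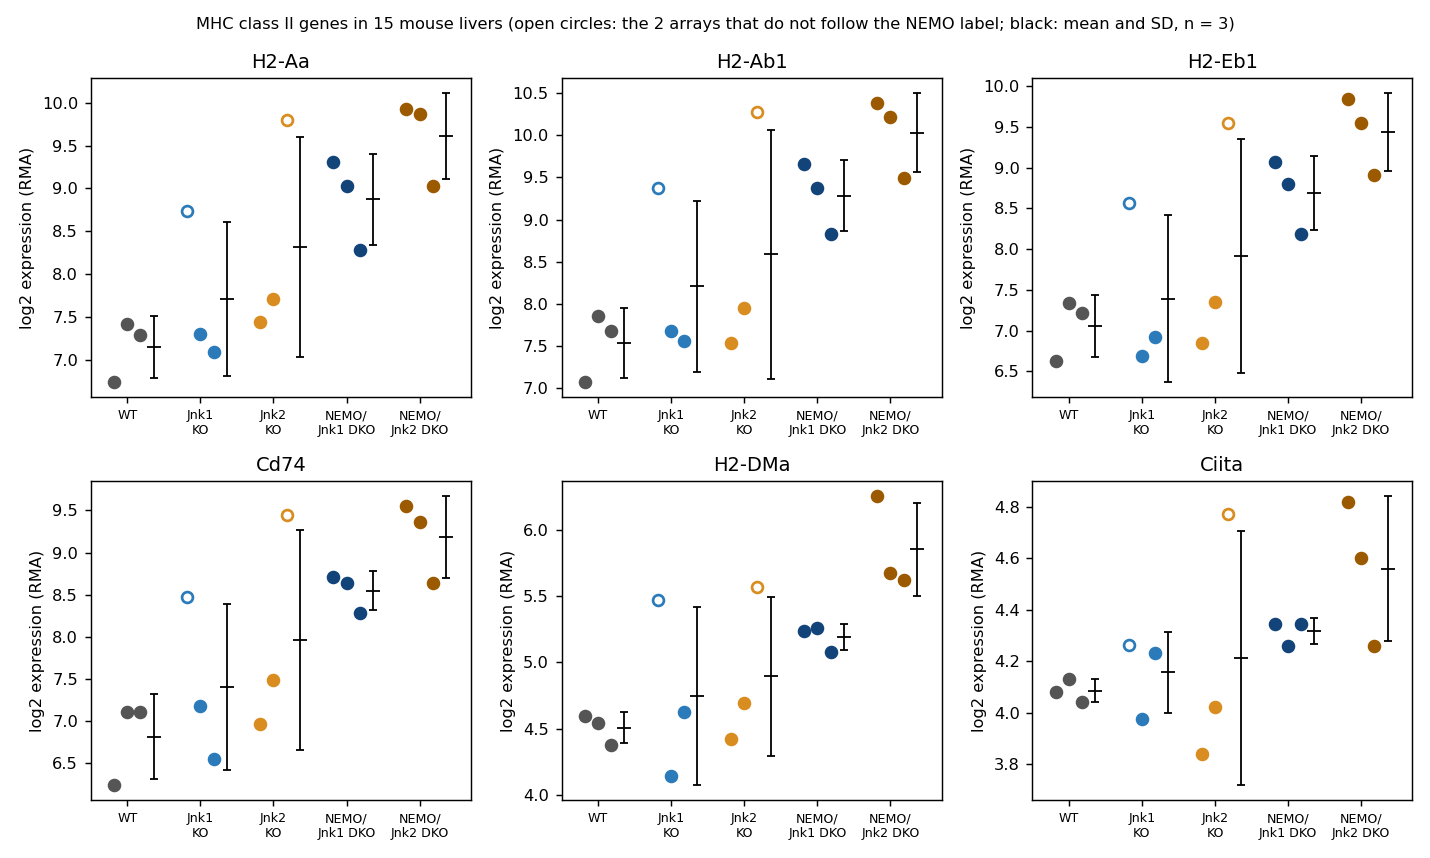
Log2 expression level (vertical axis) of the 6 measured class II members in each of 15 arrays, by group, with the mean and SD of 3 arrays; open circles are the 2 doubted arrays. For H2-Aa the 7 other NEMO-intact arrays lie between 6.73 and 7.71 and the 6 double knockouts between 8.28 and 9.93.

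As labelled, the mean of each of the 6 members was lowest in WT, then higher in Jnk1 KO and Jnk2 KO in turn, and highest in the double knockouts, with NEMO/Jnk2 DKO on top. Of the neighbours in this order that were tested (WT and Jnk1 KO, Jnk1 KO and Jnk2 KO, both double knockouts), none differed beyond the spread between arrays for any member by limma at an adjusted p under 0.05, and 0 of 6 members reached an unadjusted p under 0.05 in any of these pairs (5.58%, 7% and 5.44% of all genes did). Jnk2 KO and NEMO/Jnk1 DKO were not tested against each other. H2-Aa, H2-Ab1 and Cd74 kept this order of WT and the single knockouts without the 2 doubted arrays. In H2-Eb1 and H2-DMa the Jnk1 KO mean then lay below the WT mean (for H2-Eb1, 6.80 ± 0.17, SD, n = 2, against 7.06 ± 0.38, SD, n = 3), and in Ciita the Jnk2 KO mean was the lowest (3.93 ± 0.13, SD, n = 2).

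Every measured class II member had a higher mean in both double knockouts than in WT. In NEMO/Jnk2 DKO, 4 of 6 members rose against WT as labelled (limma, Benjamini-Hochberg adjusted over 19938 genes), where 0.873% of all genes rose. H2-Aa rose by 2.47 on the log2 scale (SE 0.55, 5.52-fold, adjusted p = 0.0361) and H2-Ab1 by 2.50 (SE 0.61, 5.64-fold, adjusted p = 0.0473). Cd74 rose by 2.37 (SE 0.56, adjusted p = 0.0436) and H2-DMa by 1.35 (SE 0.31, 2.54-fold, adjusted p = 0.041). H2-Eb1 differed by 2.38 (SE 0.60, adjusted p = 0.0522) and Ciita by 0.47 (SE 0.20, 1.39-fold, adjusted p = 0.206), which did not pass. In all 6 members the 3 NEMO/Jnk2 DKO arrays lay above the 3 WT arrays, as they did in 11.8% of all genes.

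The count of 4 rests on few arrays. With any array of WT or NEMO/Jnk2 DKO left out, or NEMO/Jnk1 DKO replicate 2, it was 0 (lowest adjusted p by limma from 0.0527 to 0.15), with 5 or 6 members at an unadjusted p under 0.05. Leaving out NEMO/Jnk1 DKO replicate 1 or replicate 3 gave 1 member, and leaving out Jnk1 KO replicate 2 gave 2. The count was 0 with every probe set tested (lowest adjusted p 0.0708) and 1 with an intensity trend and robust prior, with 6 members at an unadjusted p under 0.05 in both, as in the fit as labelled, where 18.9% of all genes were. Without the 2 doubted arrays the differences from WT keep their size and the estimate of the spread falls. Then 6 of 6 members rose in NEMO/Jnk2 DKO, against 5.75% of all genes (adjusted p by limma from 8.638e-05 for H2-Ab1 to 0.02957 for Ciita).

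In NEMO/Jnk1 DKO, H2-Aa stood 1.73 (SE 0.55, 3.31-fold, 95% interval 0.53 to 2.92) above WT, H2-Ab1 1.75, H2-Eb1 1.62, Cd74 1.73, H2-DMa 0.69 and Ciita 0.23 on the log2 scale. As labelled, 0 of 6 passed by limma (adjusted p from 0.159 to 0.597), 5 had an unadjusted p under 0.05 (16.3% of all genes did), and 0.0301% of all genes rose. All 6 members had their NEMO/Jnk1 DKO arrays above their WT arrays, as in 11.5% of all genes. Without the 2 doubted arrays 5 of 6 rose, against 4.92% of all genes, with adjusted p from 0.00131 (H2-Ab1) to 0.0235 (H2-DMa), and Ciita did not pass (adjusted p = 0.334). The 5 also passed when only the 6 arrays of this comparison were fitted. Of the NEMO/Jnk1 DKO arrays 2 had the female pattern and no WT array did. With a term for that pattern H2-Aa differed by 0.92 and none of the 6 passed. The NEMO/Jnk1 DKO array without the pattern was replicate 3, whose Mapk8 (6.53) lay near the lowest Jnk1-intact array. It had the highest Ikbkg (6.85) and the lowest H2-Aa (8.28) of the double knockouts, so the pattern cannot be told apart from this array. Without the 3 arrays of the female pattern H2-Aa differed by 1.14 on this single array. With the doubted arrays left out as well, 0 of 6 passed by limma (lowest adjusted p 0.11), with 5 at an unadjusted p under 0.05.

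**Figure D2:**
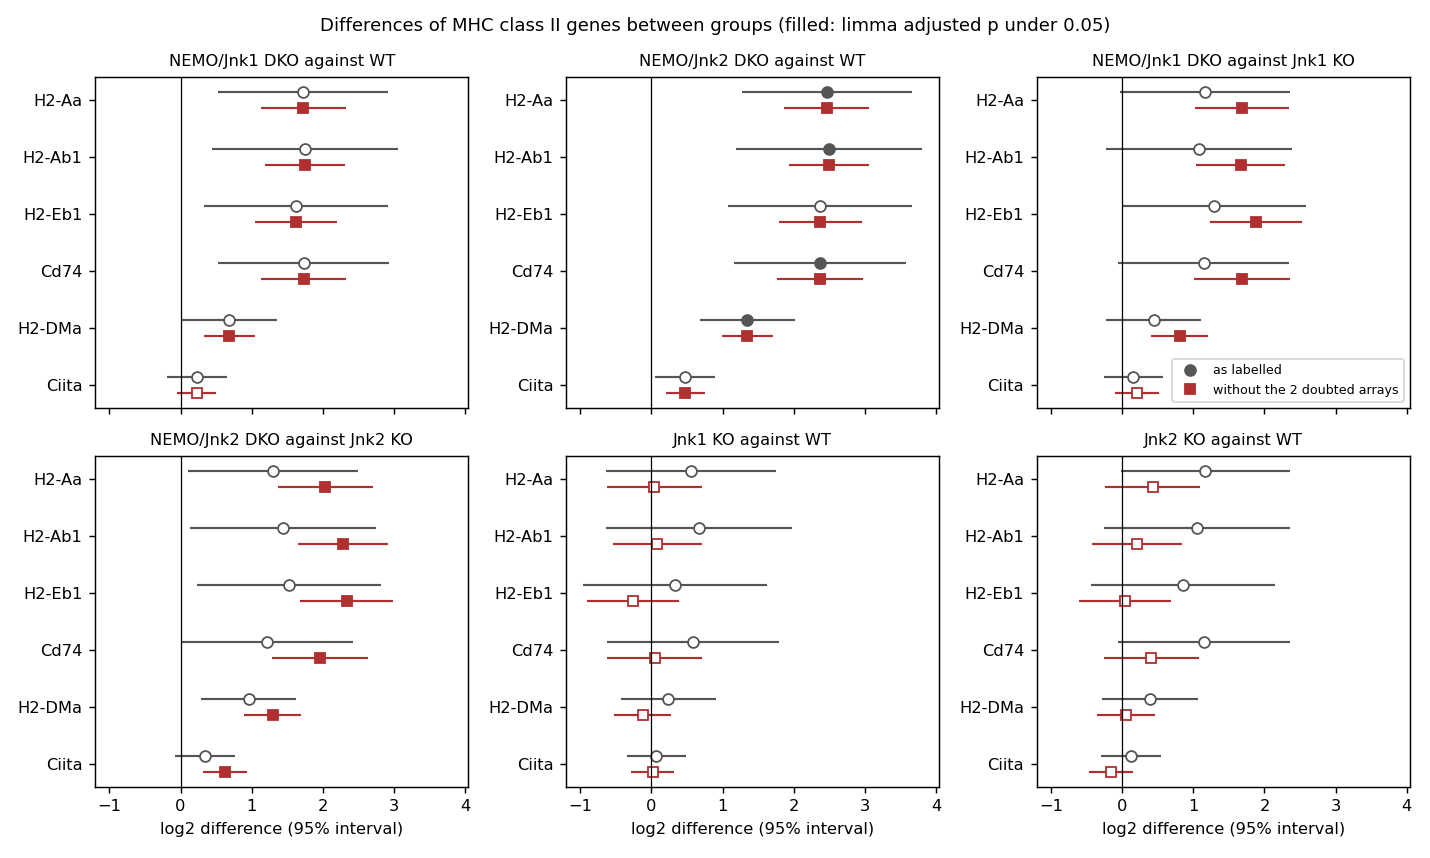
Log2 difference with its 95% interval (horizontal axis) for the 6 measured class II members in 6 comparisons (double knockouts with WT and with their single knockouts, and single knockouts with WT), as labelled (circles) and without the 2 doubted arrays (squares); filled markers passed limma at an adjusted p under 0.05. In NEMO/Jnk2 DKO against WT the values run from 0.47 for Ciita to 2.50 for H2-Ab1 in both settings, and the intervals are narrower without the doubted arrays.

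The comparison of a double knockout with its own single knockout asks what loss of hepatocyte NEMO adds on a Jnk-null background. As labelled, 0 of 6 members passed in either pair (limma). NEMO/Jnk1 DKO exceeded Jnk1 KO by 1.17 for H2-Aa (SE 0.55, 95% interval -0.02 to 2.36), 1.08 for H2-Ab1, 1.29 for H2-Eb1, 1.14 for Cd74, 0.44 for H2-DMa and 0.16 for Ciita, with adjusted p of at least 0.962. In that pair 0% of all genes rose, and 0 members were at an unadjusted p under 0.05, against 4.55% of all genes. NEMO/Jnk2 DKO exceeded Jnk2 KO by 1.30 for H2-Aa (SE 0.55), 1.44 for H2-Ab1, 1.52 for H2-Eb1, 1.22 for Cd74, 0.96 for H2-DMa and 0.35 for Ciita. The adjusted p ran from 0.554 to 0.686, 5 members had an unadjusted p under 0.05 (7.91% of all genes did), and 0.00502% of all genes rose. Only H2-DMa had its 3 NEMO/Jnk2 DKO arrays above all Jnk2 KO arrays, as had 5.28% of all genes.

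Without the 2 doubted arrays, which leaves 2 arrays in each single knockout, members passed in both pairs. The arrays left out were picked for likeness to the double knockouts, and were themselves high in class II (H2-Aa 8.74 and 9.79). Leaving them out lowers the single-knockout means and the estimate of the spread, so the counts that follow depend on that choice. In NEMO/Jnk1 DKO 5 of 6 members rose against Jnk1 KO, where 4.05% of all genes did. H2-Aa rose by 1.68 (SE 0.31, 3.21-fold, adjusted p = 0.00604 by limma), H2-Eb1 by 1.88 and H2-DMa by 0.81, and Ciita differed by 0.21 (adjusted p = 0.522). In that fit the NEMO/Jnk1 DKO array without the female pattern is replicate 3, whose Mapk8 (6.53) lay near the lowest Jnk1-intact array. The other 2 NEMO/Jnk1 DKO arrays have the pattern and no Jnk1 KO array in that fit does. With these 2 also left out, 0 of 6 passed by limma (lowest adjusted p 0.132, 5 at an unadjusted p under 0.05), and H2-Aa differed by 1.09 (SE 0.35) on the single NEMO/Jnk1 DKO array left, whose spread is taken from the other groups. In NEMO/Jnk2 DKO 6 of 6 rose against Jnk2 KO, where 3.88% of all genes did; with only Jnk2 KO replicate 3 left out 2 did (H2-Ab1 and H2-Eb1). H2-Aa rose by 2.04 (SE 0.31, 4.10-fold, adjusted p = 0.00206 by limma), H2-Eb1 by 2.33, H2-DMa by 1.29 and Ciita by 0.63 (adjusted p = 0.0195). The 6 double knockouts lay above the 7 NEMO-intact arrays other than the doubted ones in 6 of 6 members, as in 4.68% of all genes. Against all 9 NEMO-intact arrays as labelled this held for 0 of 6 members, and for 0.0351% of all genes. Both statements use the same double-knockout arrays as the comparisons with WT.

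Averaged over both backgrounds, NEMO loss went with 1.23 (SE 0.39) more H2-Aa as labelled, 1.26 more H2-Ab1, 1.41 more H2-Eb1, 1.18 more Cd74, 0.70 more H2-DMa and 0.25 more Ciita. By limma 0 of 6 passed (adjusted p from 0.376 to 0.542), with 5 at an unadjusted p under 0.05 (10.5% of all genes were), and 0% of all genes rose. Without the 2 doubted arrays 6 of 6 rose, against 7.68% of all genes, and this count depends on the choice of those arrays in the same way. The values were 1.86 for H2-Aa (SE 0.22), 1.97 for H2-Ab1, 2.11 for H2-Eb1, 1.82 for Cd74, 1.05 for H2-DMa and 0.42 for Ciita (adjusted p from 4.08e-05 to 0.0151). Leaving out only Jnk1 KO replicate 1 gave 5 members and leaving out only Jnk2 KO replicate 3 gave 4, against 0 without any other array. The shares of all genes called with 1 array left out are not given here. With the doubted and the female-pattern arrays all left out, 5 members rose (H2-Aa by 1.56), and Ciita differed by 0.44 (limma adjusted p = 0.0797).

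The single knockouts alone did not separate from WT. In Jnk1 KO 0 of 6 members passed by limma as labelled, where 0.00502% of all genes rose, with 0 members and 5.58% of all genes at an unadjusted p under 0.05. Without the doubted array the counts were again 0 and 0 (0.00502% and 5.07% of all genes). H2-Aa stood 0.56 above WT as labelled (95% interval -0.63 to 1.75) and 0.04 above it without the doubted array. In Jnk2 KO 0 of 6 passed by limma as labelled, where 0.166% of all genes rose, with 0 members and 12.1% of all genes at an unadjusted p under 0.05. Without the doubted array these were 0 and 0 again (0.682% and 12.9% of all genes). H2-Aa stood 1.17 above WT (95% interval -0.02 to 2.36) as labelled and 0.43 without that array. Between Jnk1 KO and Jnk2 KO 0 of 6 passed by limma, where 0.13% of all genes were called in either direction as labelled and 0.597% without the doubted arrays. At an unadjusted p under 0.05 there were 0 members in both settings, against 7% and 10.8% of all genes. As labelled, the Jnk2 KO intervals against WT reached past 1 log2 unit for every measured member but Ciita (-0.29 to 0.55). Without the doubted arrays the lowest bound of Jnk1 KO against WT was -0.91 (H2-Eb1) and the highest 0.72 (Cd74), and these results do not show equal levels.

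Of the double knockouts, NEMO/Jnk1 DKO was the lower for all 6 members. Its replicates 1 and 2 had the female pattern and no NEMO/Jnk2 DKO array did, so this comparison mixes the Jnk background with that pattern. The differences were -0.74 for H2-Aa (SE 0.55, 95% interval -1.93 to 0.45), -0.75 for H2-Ab1, -0.75 for H2-Eb1, -0.64 for Cd74, -0.66 for H2-DMa and -0.24 for Ciita. By limma 0 of 6 passed as labelled, where 0.0602% of all genes were lower, with 0 members and 5.44% of all genes at an unadjusted p under 0.05. Without the 2 doubted arrays 0 of 6 passed, where 0.14% of all genes were lower, with 5 members and 7.5% of all genes at an unadjusted p under 0.05. H2-DMa had the lowest adjusted p (0.175). The arrays of the 2 groups separated only for H2-DMa (5.62 to 6.26 against 5.08 to 5.26), as they did in 5.51% of all genes. The difference between the NEMO effects on the 2 backgrounds was -0.13 for H2-Aa as labelled and -0.35 without the doubted arrays. It passed for 0 of 6 members in both settings (lowest adjusted p 0.763 by limma), and for 0% of all genes as labelled and 0.01% without the doubted arrays. At an unadjusted p under 0.05 there were 0 members in both, against 2.75% and 6.59% of all genes. With the doubted and the female-pattern arrays all left out, only NEMO/Jnk1 DKO replicate 3 was left in its group. H2-Aa then differed by -1.33 between the double knockouts and by -0.94 between the NEMO effects.

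The members also varied together between mice. Over 15 arrays the pairs among H2-Aa, H2-Ab1, H2-Eb1 and Cd74 had a Pearson r of 0.978 to 0.994. After the group means were subtracted, with the 2 doubted arrays left out, r over 13 arrays was 0.805 to 0.98 for these pairs. It was 0.157 to 0.817 for pairs with H2-DMa and 0.414 to 0.817 for pairs with Ciita. These points share their arrays and normalization, and r is given as a description. The probe set that carried the symbols of both H2-DMb1 and H2-DMb2, counted for neither gene, read 4.64 to 5.02 in WT. In the single knockouts it read 4.42 to 5.99 (Jnk1 KO) and 4.74 to 6.35 (Jnk2 KO). In the double knockouts it read 5.58 to 6.18 (NEMO/Jnk1 DKO) and 5.93 to 6.54 (NEMO/Jnk2 DKO), and overlapped with the single knockouts. Among all 35556 probe sets it differed between NEMO/Jnk2 DKO and WT by 1.47 (limma adjusted p = 0.122 as labelled and 0.00246 without the doubted arrays).

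The genes whose levels followed the mean of H2-Aa, H2-Ab1, H2-Eb1 and Cd74 most closely over 15 arrays were Ctss (r = 0.976), Itgb2 (0.974), Tm6sf1 (0.964), Myof (0.957), Fcer1g (0.955), Rhoc (0.953), Pdgfra (0.952), Ccl5 (0.949), Otulinl (0.949) and Laptm5 (0.948). Ctss encodes cathepsin S, the protease that trims the invariant chain, and read 7.41 to 8.20 in the 7 NEMO-intact arrays other than the doubted ones and 9.02 to 9.85 in the double knockouts. Itgb2 encodes the beta 2 integrin chain of leukocytes, Fcer1g the signalling chain of Fc receptors, and Ccl5 a chemokine. Pdgfra is the platelet-derived growth factor receptor known from fibroblasts and stellate cells. The arrays fall into a low and a high cluster, and r reflects that split as well as the variation within it.

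Other genes of the pathway were read from 6 lists in the averaged NEMO comparison. As labelled, 0 genes of any of these lists passed (limma). The counts below are without the 2 doubted arrays, where 7.68% of all genes rose, 3.97% fell and the median of all genes was -0.01. Of the endosomal proteases and loading factors 6 of 8 rose and 0 fell, with a median of 0.54. Ctss rose by 1.44, Ifi30, the thiol reductase that opens antigens for cleavage, by 0.93, Lgmn, the asparaginyl endopeptidase, by 0.90, and Ctsd, an aspartic protease, by 0.61. As labelled Ctss differed by 0.94 (limma adjusted p = 0.379) and Lgmn by 0.64 (adjusted p = 0.376). In NEMO/Jnk2 DKO against WT as labelled, 1 of these 8 genes rose and 1 fell by limma, where 0.873% and 1.76% of all genes did. Of the partners and inhibitors 1 of 5 rose (H2-Oa, a chain of the H2-DM inhibitor H2-O, by 0.31), with a median of 0.19.

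The promoter factors that hold Ciita at the X and Y boxes showed 0 of 7 genes called in either direction. Their median was 0.00, and the lowest unadjusted p (0.0821) was that of Rfx5, an X box protein, at 0.18. Nfyc, a subunit of the Y box factor, differed by -0.11. The mean level of the 7 was 6.28 to 6.52 in the NEMO-intact arrays other than the doubted ones and 6.34 to 6.52 in the double knockouts. Of the interferon gamma genes 2 of 7 rose (the transcription factor Irf1 by 0.70 and the receptor chain Ifngr1 by 0.44), with a median of 0.10.

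Of the co-stimulation genes 3 of 6 rose, with a median of 0.28. Cd86, which gives T cells their second signal through CD28, rose by 0.75, Cd274, the inhibitory ligand PD-L1, by 0.71, and Icosl by 0.42. Of the class I genes 2 of 9 rose (the peptide transporter chain Tap1 by 0.70 and the immunoproteasome subunit Psmb9 by 0.64), with a median of 0.25. H2-K1 and H2-D1 had no probe set of their own. As labelled Cd86 differed by 0.61 (adjusted p = 0.376) and Tap1 by 0.47 (adjusted p = 0.42).

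**Figure D3:**
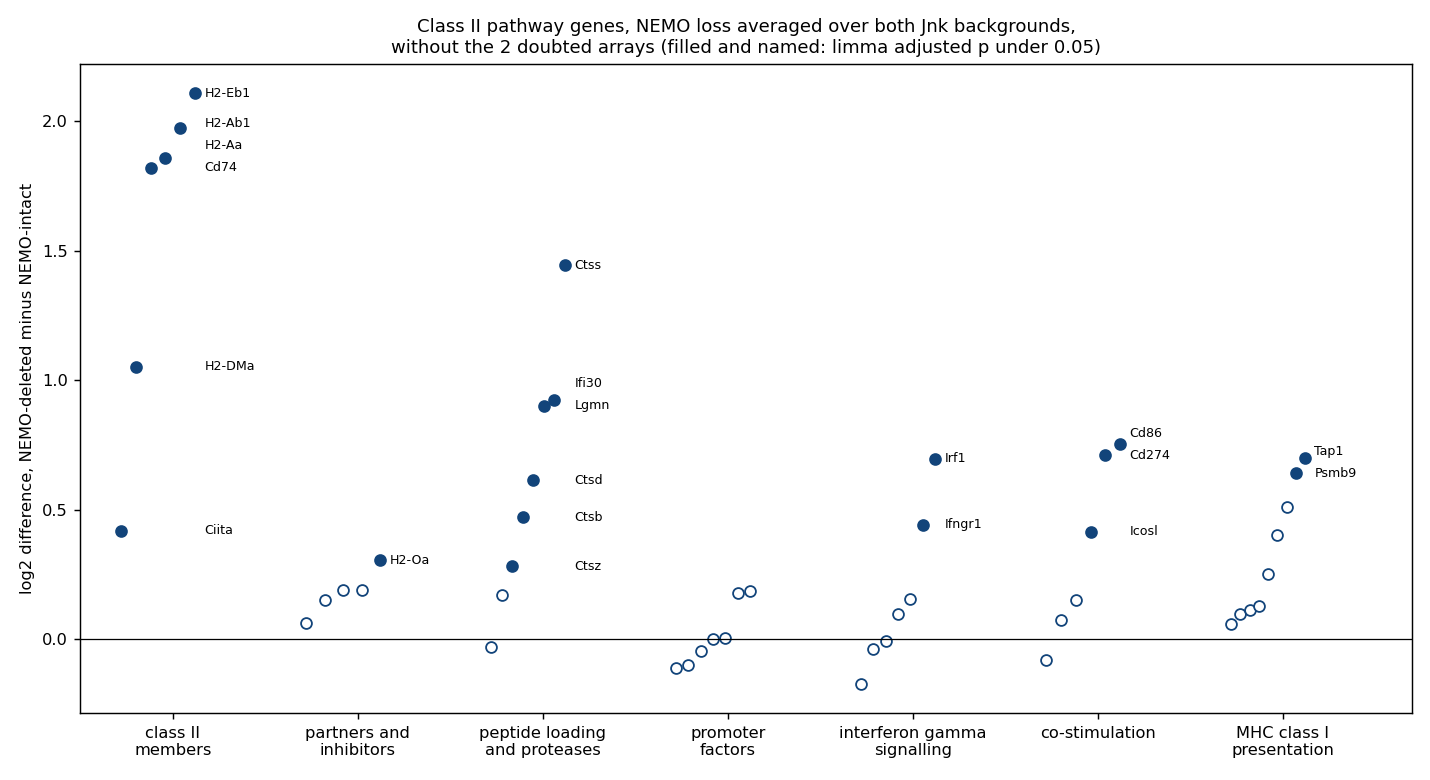
Log2 difference of the averaged NEMO comparison (vertical axis) for the measured genes of the 6 pathway lists and the 6 class II members, without the 2 doubted arrays, 1 point per gene; filled points passed limma at an adjusted p under 0.05. The class II members lie between 0.42 and 2.11, and the promoter factors have a median of 0.00.

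Whole liver mixes many cell types, and fewer cells of a type cannot be told apart from less RNA per cell. Markers of cells that carry class II were read in the same averaged comparison, without the 2 doubted arrays, where 7.68% of all genes rose and 3.97% fell. Of the monocyte and macrophage markers 9 of 11 rose, with a median of 0.84. Gpnmb, a lysosomal glycoprotein of phagocytes, rose by 2.64, the scavenger receptor Cd68 by 1.55, the chemokine receptor Ccr2 by 1.53 and lysozyme Lyz2 by 1.28. The mean level of the 11 markers was 5.04 to 5.42 in the NEMO-intact arrays other than the doubted ones, 6.16 to 6.59 in the double knockouts and 6.57 to 6.84 in the 2 doubted arrays. As labelled 0 of 11 passed by limma, with a median of 0.65 (Cd68 differed by 0.99, adjusted p = 0.376). The 2 arrays left out were picked in part by Mmp12, a macrophage gene, which widens differences in genes that move with it. The macrophage markers moved with class II, and their part in the class II difference was not tested.

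In the averaged comparison, where 7.68% of all genes rose, 3 of 7 Kupffer cell markers did (the scavenger receptor Marco by 1.63, Cd5l by 0.90 and the complement receptor Vsig4 by 0.66). Their mean level was 6.29 to 7.34 in the NEMO-intact arrays other than the doubted ones and 7.01 to 7.99 in the double knockouts, and these ranges overlap. The doubted arrays read 7.40 (Jnk1 KO replicate 1) and 6.59 (Jnk2 KO replicate 3). By background, 2 of 7 Kupffer cell markers rose between NEMO/Jnk1 DKO and Jnk1 KO (median 0.61), where 4.05% of all genes rose. Between NEMO/Jnk2 DKO and Jnk2 KO 0 of 7 rose by limma (median 0.03), where 3.88% of all genes did. There 1 marker was at an unadjusted p under 0.05, against 18.1% of all genes. Of the dendritic cell markers 4 of 12 rose in the averaged comparison (the integrin Itgax by 1.17, Irf8 by 0.58, Siglech by 0.55 and Cd209a by 0.31). Flt3, Zbtb46, Xcr1, Clec9a, Ccr7, Batf3, Dpp4 and Clec10a did not rise past the threshold. The mean level of the 12 was 4.48 to 4.64 in those 7 NEMO-intact arrays, against 4.67 to 4.91 with NEMO deleted. Clec10a was dim in every array.

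Of the B cell markers 0 of 9 passed (limma), and Cd79a, Ms4a1, Fcrla, Cr2 and Fcer2a were dim in every array. Their mean level was 3.33 to 3.52 in the NEMO-intact arrays other than the doubted ones and 3.44 to 3.69 in the double knockouts. Of the T cell markers 1 of 6 rose (Cd3g, by 0.61), where 7.68% of all genes did. The mean level of the 6 was 3.55 to 3.72 in those NEMO-intact arrays, against 3.67 to 4.15 with NEMO deleted. Of the NK cell, liver endothelial and cholangiocyte markers 0 of 6, 0 of 7 and 0 of 4 passed. Of the NK cell markers, Ncr1, Klrb1c, Klrk1, Gzma and Gzmb were dim in every array. Hepatocyte markers, which define the labelled tissue, had the highest mean level of these lists (12.1 to 12.5 over all arrays). Of these, 2 of 7 fell, where 3.97% of all genes did: Cyp2e1, a cytochrome P450, fell by 0.45 and Tat, tyrosine aminotransferase, by 0.41. As labelled 0 markers of any cell list passed in this comparison.

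**Figure D4:**
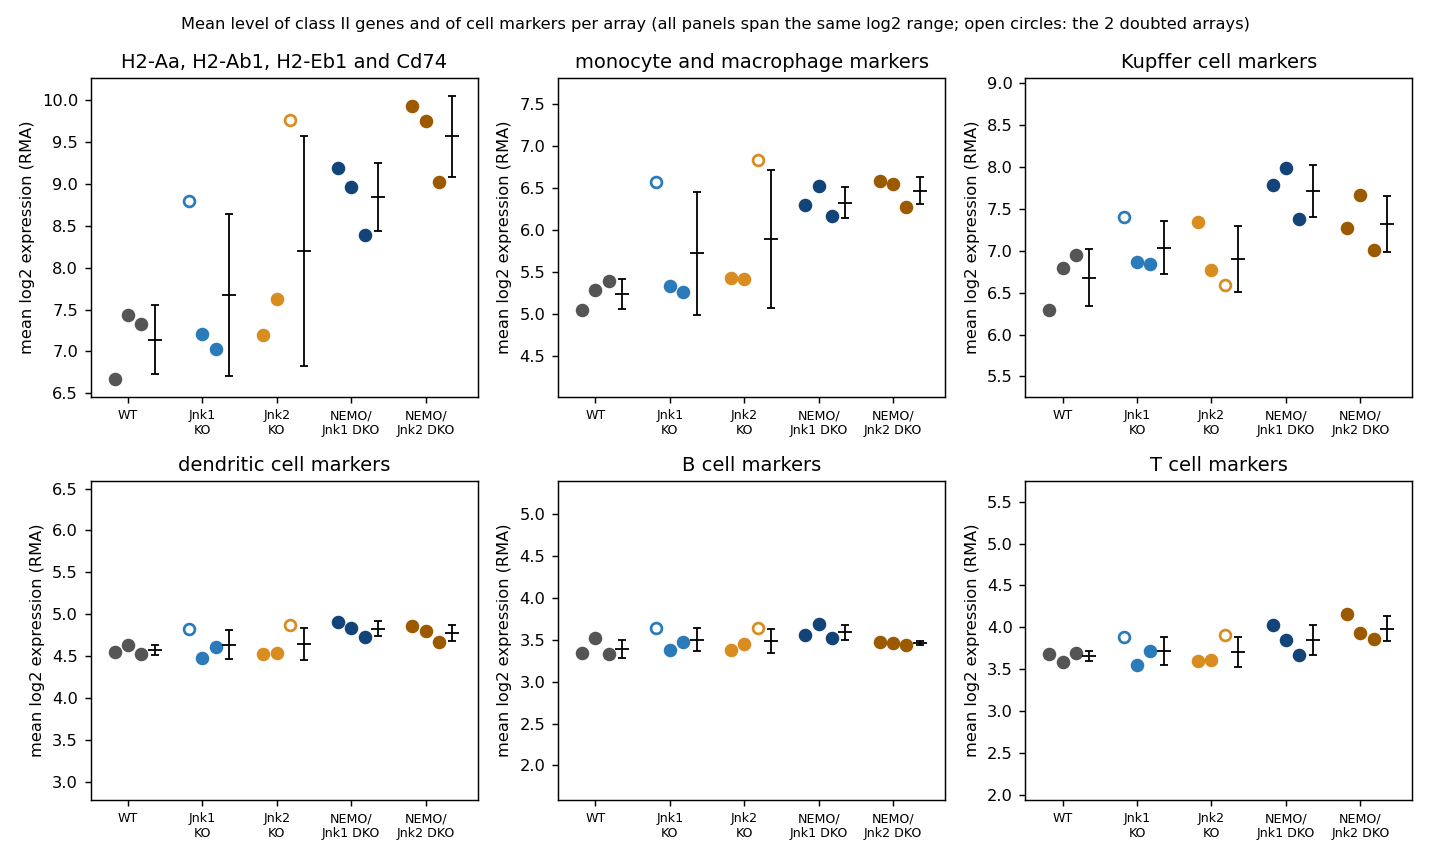
Mean log2 level (vertical axis) of 4 class II members (H2-Aa, H2-Ab1, H2-Eb1 and Cd74) and of marker lists for 5 cell types in each of 15 arrays, by group; bars are the mean and SD of 3 arrays as labelled, and open circles the 2 doubted arrays. The monocyte and macrophage markers lie between 6.16 and 6.59 in the double knockouts and between 5.04 and 5.42 in the NEMO-intact arrays other than the doubted ones.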

How the data were processed

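Per the submitters' processing notes the authors used RMA, and they deposited the log2 values of 15 arrays. The version of RMA and the genome build are not given in the sources used here, and base 2 was read off the spread of the numbers. Of 35556 probe sets, 21789 had 1 symbol in the platform's gene table, 1621 had several and 12146 were not listed. The brightest single-symbol probe set stood for each of 19938 genes.

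All comparisons were contrasts in limma 3.58.1 (R 4.3.3, lmFit and eBayes) with 1 mean per group over 15 arrays (10 residual and 3.75 prior degrees of freedom, or 8 and 5.05 without the 2 doubted arrays). The threshold was an adjusted p (Benjamini-Hochberg, over all genes) under 0.05. No batch is labelled. The scripts were tested on simulated data. Promoter sequences came from RefSeq. Python 3.11.15 with matplotlib 3.10.9 drew the figures.

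The members, the 15 lists (111 of 125 genes measured) and the tests were chosen with earlier results of these data known. From each list, up to 4 genes past the threshold in the averaged NEMO comparison with the largest change are named, or the 2 with the lowest p where none passed, for lists whose counts are described further. The 10 genes most alike the class II mean are named by Pearson r, members and unnamed gene models left out. Alternatives were other fits and filters, array weights, the replicate number as a block and each array left out. Leaving out the doubted arrays, the female-pattern arrays or both, and a sex term, were added after seeing the data.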

Additional observations from a re-analysis of the deposited data

How the results depend on the processing

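Of 10 counts of class II members called by limma, 5 moved with the processing. For NEMO/Jnk2 DKO against WT (4 members called) the count was 1 with an intensity trend and robust prior, 0 with every probe set tested and 0 with the replicate number as a block (lowest adjusted p 0.0556), and 0 to 5 with 1 array left out. For NEMO/Jnk1 DKO against WT (0 called) it was 5 with only the arrays compared, 4 with array weights, 5 without the 2 doubted arrays and 0 to 0 with 1 array left out. With the doubted and the 3 female-pattern arrays all left out, this count was 0. Without the doubted arrays it was 5 for NEMO/Jnk1 DKO against Jnk1 KO and 6 for NEMO/Jnk2 DKO against Jnk2 KO (0 and 6 with the female-pattern arrays left out too, 0 each as labelled, and 0 to 2 in the latter with 1 array left out). For the averaged NEMO comparison (0 called) it was 2 with array weights, 6 without the doubted arrays, 5 with the female-pattern arrays left out too, and 0 to 5 with 1 array left out. Shares of all genes called are given only for the fits as labelled and without the 2 doubted arrays. In the other settings these counts cannot tell a shift of the class II members from a shift over all genes. The cause of these shifts was not tested. The replicate numbers do not pair the mice: of 30 same-numbered pairs of arrays 4 had deviations correlated above 0.1 (r from -0.395 to 0.304), and 3 of 15 arrays correlated best with their own number.

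Directions held in the comparisons of double knockouts with WT and with single knockouts under every setting run. Reversals arose where the difference itself had not passed. Against WT, Jnk1 KO gave -0.011 for H2-DMa with array weights, -0.26 for H2-Eb1 and -0.12 for H2-DMa without the 2 doubted arrays, without the 3 female-pattern arrays and with both sets left out, and -0.087 for H2-Eb1 with a sex term. Jnk2 KO gave -0.15 for Ciita without the doubted arrays, and Ciita in Jnk1 KO against Jnk2 KO gave 0.17, in both cases also with the female-pattern arrays left out. The difference of the NEMO effects gave 0.20 for Cd74 without the female-pattern arrays. With 1 array left out, values reversed in 29 of 900 member differences, none of them past the threshold. Jnk1 KO against WT ranged from -0.26 to 0.69 for H2-Eb1 and from -0.12 to 0.54 for H2-DMa, and Jnk2 KO against WT from -0.15 to 0.31 for Ciita. Jnk1 KO against Jnk2 KO ranged from -1.13 to 0.13 for H2-Aa, -0.97 to 0.46 for H2-Ab1, -1.11 to 0.29 for H2-Eb1, -1.10 to 0.17 for Cd74, -0.51 to 0.19 for H2-DMa and -0.24 to 0.23 for Ciita. The difference of the NEMO effects ranged from -0.87 to 0.39 for H2-Aa, -1.21 to 0.22 for H2-Ab1, -1.04 to 0.36 for H2-Eb1 and -0.81 to 0.46 for Cd74.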
